A study of Mus musculus with 4 samples.

Results

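The genes described here encode the extracellular and receptor side of Wnt signaling, with the nearest intracellular regulators. They were chosen by symbol: the *Wnt* ligand genes, the *Fzd* receptors with *Lrp5* and *Lrp6*, the secreted antagonists of the *Dkk* and *Sfrp* families with *Frzb*, *Wif1* and *Notum*, the *Rspo* and *Lgr* genes with *Znrf3* and *Rnf43*, and *Ctnnb1*, *Axin1*, *Axin2*, *Nkd1*, *Nkd2*, *Tcf7*, *Tcf7l1*, *Tcf7l2* and *Lef1*. The rule uses symbols and no measured value, but the set was proposed with earlier results of these data known. There were 60 such genes among the 33981 genes in the count tables, namely 19 ligands, 12 receptors, 11 secreted antagonists, 9 genes of the R-spondin axis and 9 intracellular genes.

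Wnt proteins are secreted lipid-modified ligands that bind Frizzled receptors. In the canonical branch the Lrp5 or Lrp6 co-receptor joins them, β-catenin (*Ctnnb1*) escapes destruction by the Axin complex, and TCF/LEF factors on target genes are switched on. In non-canonical branches, Frizzled receptors act with Ror or Ryk receptors on cell polarity and movement without β-catenin. Secreted Frizzled-related proteins, Wif1 and Notum act on the ligand, Dickkopf proteins act mostly on the co-receptor, and R-spondins bound to Lgr receptors remove the ubiquitin ligases Znrf3 and Rnf43 that take Frizzled off the cell surface. In adult brain the pathway is known for its part in synapses, in the blood-brain barrier and in adult-born neurons.

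RNA was sequenced from coronal brain tissue cut through the prefrontal cortex of male C57BL/6J mice aged 3 to 5 months, with no transgene. Normotensive (NT) mice received saline by infusion. Hypertensive (HT) mice received angiotensin II for 28 days, at a daily dose of 0.28 mg/kg, so that hypertension and the hormone itself cannot be told apart. On day 7 each mouse had either sham surgery or a photothrombotic stroke, in which light activates a dye and clots the vessels of the illuminated cortex. Tissue was taken on day 28, so stroke groups were sampled well after the injury. The tables number 6 libraries in each of the 4 groups (NT + Sham and NT + Stroke, then HT + Sham and HT + Stroke), and each library was treated as 1 mouse. The labels do not say that these were separate animals, so *P*-values measure the spread between libraries, which may be technical.

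Libraries held 15922919 to 24865998 counts. All 7 of 7 listed markers of cortical excitatory neurons were detected in every group. So were all 8 olfactory bulb markers and all 9 striatal markers. Detection alone does not show how much of each region a section held. The level of the region markers differed between libraries. It is taken below as a sign of the section plane, which was itself not measured. The summed level of the olfactory bulb markers ran from 81.8 to 175 CPM (counts scaled to library size, with TMM scaling between libraries) in NT + Sham, 125 to 475 in NT + Stroke, 129 to 564 in HT + Sham and 48.3 to 350 in HT + Stroke. Some libraries stood apart from their group in signs of injury. Complement *C3*, which glia and infiltrating cells express after injury, had 559 to 1514 counts per library in NT + Stroke and 601 to 2736 in libraries 2 to 5 of HT + Stroke, but 51 and 54 counts in HT + Stroke libraries 1 and 6. It had 210 counts in HT + Sham library 6, against 1 to 28 in the other libraries of that group. For comparisons that use these libraries, the counts of genes called are given with and without them.

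*Fzd7*, *Sfrp5* and *Wnt6* rose in NT + Stroke without overlap with NT + Sham, and *Lgr6* followed the olfactory bulb markers most closely. The promoters of these 4 genes, on which the results turn, are shown. Each is the 250 bases before the transcription start in RefSeq (GRCm38.p6), read 5′ to 3′ on the gene's strand, and capitals mark a match to the core TCF/LEF motif, CTTTGA or CTTTGT on either strand. *Fzd7* is at chr1:59481897-59482146 (plus strand), *Sfrp5* at chr19:42202253-42202502 (minus strand), *Wnt6* at chr1:74771642-74771891 (plus strand) and *Lgr6* at chr1:135105277-135105526 (minus strand).
Fzd7: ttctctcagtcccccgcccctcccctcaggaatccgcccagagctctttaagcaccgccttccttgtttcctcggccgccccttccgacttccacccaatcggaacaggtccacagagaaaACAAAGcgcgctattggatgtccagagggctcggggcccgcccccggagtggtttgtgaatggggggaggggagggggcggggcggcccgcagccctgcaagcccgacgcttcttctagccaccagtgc
Sfrp5: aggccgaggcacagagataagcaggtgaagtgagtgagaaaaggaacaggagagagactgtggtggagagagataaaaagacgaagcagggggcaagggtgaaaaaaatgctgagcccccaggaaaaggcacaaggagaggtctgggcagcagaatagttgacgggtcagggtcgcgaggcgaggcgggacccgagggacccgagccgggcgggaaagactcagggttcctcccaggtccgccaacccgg
Wnt6: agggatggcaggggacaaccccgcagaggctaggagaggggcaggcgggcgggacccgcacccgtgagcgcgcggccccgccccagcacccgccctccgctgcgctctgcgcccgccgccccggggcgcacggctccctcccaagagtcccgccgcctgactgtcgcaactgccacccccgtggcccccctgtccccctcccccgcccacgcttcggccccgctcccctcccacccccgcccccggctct
Lgr6: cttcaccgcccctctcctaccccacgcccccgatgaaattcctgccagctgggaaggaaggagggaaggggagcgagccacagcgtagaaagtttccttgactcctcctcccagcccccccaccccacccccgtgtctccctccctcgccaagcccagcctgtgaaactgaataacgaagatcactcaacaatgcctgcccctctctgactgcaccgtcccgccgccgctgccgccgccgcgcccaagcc
The *Fzd7* window ends before the RefSeq start, which lies upstream of the gene start in the count tables (59482424), so it does not adjoin the latter. It held 1 match and the other 3 windows held none. The RefSeq table had windows for 40 of the 60 genes, and 11 of them (27.5%) had a match in at least 1 window, against 8319 of 27025 genes in the whole table (30.8%). A match is a run of letters and not a shown binding site.

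Levels spanned a wide range before any comparison of groups. On the length-corrected FPKM scale, *Dkk3*, a Dickkopf family member that cortical neurons express strongly, had the highest mean level of the 60 genes at 67.0 ± 12.4 FPKM (SD, n = 24 libraries), followed by *Ctnnb1* at 31.7 ± 6.46 FPKM. Among ligands, *Wnt7b* was highest at 15.2 ± 2.47 FPKM, and *Wnt4*, *Wnt10a*, *Wnt9a* and *Wnt7a* had mean levels between 5.11 and 6.08 FPKM, whose ranges over libraries overlapped. *Fzd2* and *Fzd3* led the receptors at 5.71 ± 1.03 and 5.15 ± 0.490 FPKM. Per length, *Dkk3* and *Ctnnb1* thus stood above every ligand and receptor. *Dkk3* was listed with the antagonists by its family, and its action on Wnt signaling was not measured.

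The genes with too few counts to be tested were *Wnt3a*, *Wnt8a*, *Wnt8b*, *Wnt9b*, *Dkk1*, *Dkk4* and *Rspo4*. Their total counts over all 24 libraries were 24 for *Wnt3a*, 12 for *Wnt8a*, 65 for *Wnt8b*, 133 for *Wnt9b*, 22 for *Dkk1*, 35 for *Dkk4* and 93 for *Rspo4*, and no library exceeded 14 counts of any of them. *Dkk1*, the best known Dickkopf antagonist, had 0 counts in every NT + Sham library and at most 6 in an NT + Stroke library, and a difference of that size was not detectable at this depth. The other 53 genes were tested in every comparison.

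**Figure D1:**
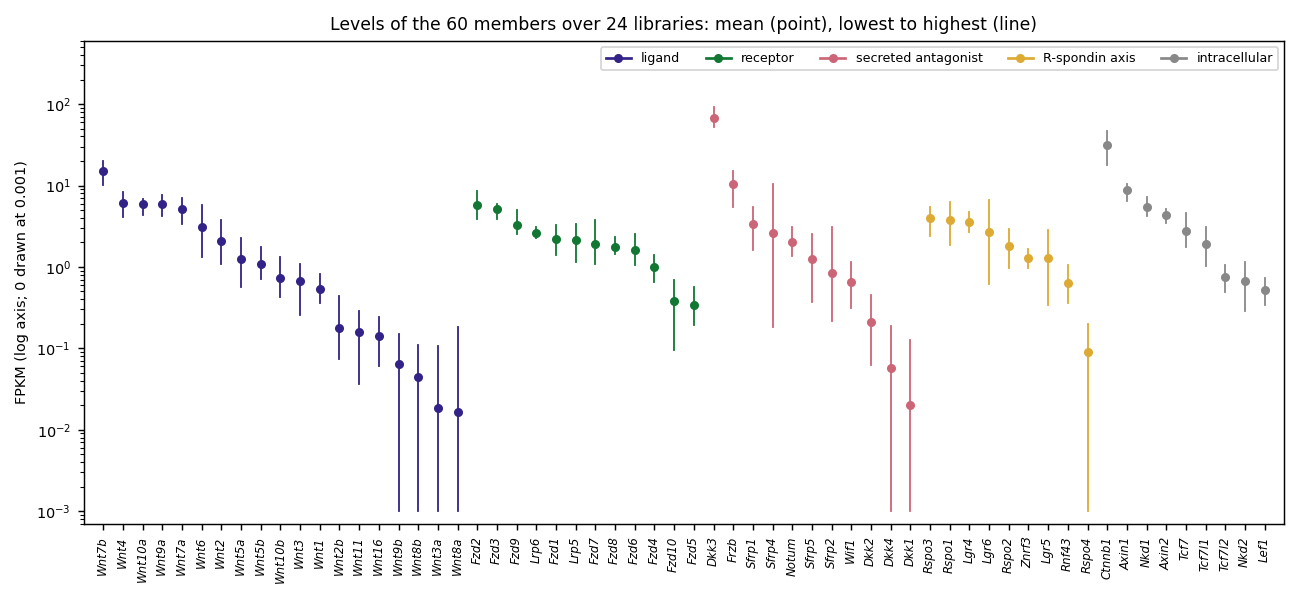
Mean FPKM (points) and lowest to highest FPKM over 24 libraries (lines) for each of the 60 genes, grouped by role, on a log axis where 0 is drawn at 0.001. *Dkk3* and *Ctnnb1* stand above all others, and the 7 genes at the low ends of their groups were not tested.

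Stroke in normotensive mice was compared with sham surgery first. Of 53 genes tested, 17 rose and 7 fell in NT + Stroke at an adjusted *P* under 0.05 by edgeR's quasi-likelihood test. These 24 genes were 45.3% of those tested, where 25.9% of all 16835 genes passed (14.4% higher and 11.5% lower). At an unadjusted *P* under 0.05 there were 30 of the 53 genes and 36.0% of all genes. The groups did not overlap in CPM for 9 of the 53 genes, against 14.3% of all genes. That share was near the background, so lack of overlap does not set these genes apart. The median log2 difference was 0.24 over the 53 genes and -0.01 over all genes. Other tools, scalings and filters called 20 to 27 of the genes. The share of all genes they called was 28.5% with DESeq2, 23.8% with scaling by library size only, 25.0% with upper-quartile scaling, 13.1% among all genes with at least 1 count, 26.5% with at least 10 counts in every library, 23.3% and 23.2% with limma on FPKM, 21.4% with all 4 groups in 1 fit and 27.5% with a block for the library number. Among the genes called, the largest rises were those of *Sfrp4*, *Sfrp5*, *Fzd7* and *Sfrp2*, followed by the ligands *Wnt11* and *Wnt6*. The 7 genes that fell were 4 ligands, the receptor *Fzd3*, *Dkk3* and *Rspo2*. As bulk tissue was measured, fewer cells of a type and less RNA per cell cannot be told apart.

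Secreted antagonists gave the largest differences: 5 of 9 tested rose and 1 fell. *Sfrp4* (ENSMUSG00000021319, chromosome 13, 19623104 to 19632994 on GRCm38), a secreted Frizzled-related protein, was 0.772 to 1.996 CPM in NT + Sham (median 1.84) and 3.81 to 34.6 CPM in NT + Stroke (median 23.5). Every stroke library lay above every sham library, although stroke libraries differed widely among themselves. Its fitted log2 difference was 3.61 (SE 0.52, adjusted *P* = 0.000463), a 12.2-fold higher level. *Sfrp5*, a relative on chromosome 19 (42197971 to 42202252), was 0.715 to 1.93 CPM in NT + Sham (median 1.33) and 3.12 to 4.55 CPM in NT + Stroke (median 3.51). These groups were also apart, with a log2 difference of 1.51 (SE 0.21, adjusted *P* = 3.68e-05).

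*Sfrp1* was 10.1 to 13.2 CPM in NT + Sham (median 11.8) and 15.8 to 19.6 CPM in NT + Stroke (median 17.0), again without overlap (log2 difference 0.58, SE 0.09, adjusted *P* = 8.72e-05). *Sfrp2* was 1.02 to 1.59 CPM in NT + Sham (median 1.27) and 1.26 to 6.33 CPM in NT + Stroke (median 1.89). Here the groups overlapped and library 1 of NT + Stroke was far above the rest. The log2 difference of *Sfrp2* was 1.04 (SE 0.35, adjusted *P* = 0.0346), and 0.57 without that library. It lost its call without NT + Stroke library 1 or 5 or NT + Sham library 1, 2, 3, 4 or 6, with an adjusted *P* of up to 0.0928. *Notum*, an enzyme that strips the lipid from Wnt ligands, had a log2 difference of 0.34 (SE 0.12, adjusted *P* = 0.0452) that was lost in 8 of 12 such fits (without NT + Sham 3, 4 or 5, or NT + Stroke 1, 2, 3, 5 or 6), and over all 12 fits it was 0.30 to 0.39.

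*Dkk3* (chromosome 7, 112116017 to 112159057) moved the other way. It was 260 to 310 CPM in NT + Sham (median 275) and 168 to 199 CPM in NT + Stroke (median 175), so that no stroke library reached the lowest sham library. Its log2 difference was -0.60 (SE 0.06, adjusted *P* = 2.85e-06), the smallest *P* of the 53 genes. *Frzb* (a Frizzled-related protein), *Wif1* and *Dkk2* did not pass, with log2 differences of 0.19, 0.42 and 0.38.

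Among the ligands, 4 of 15 tested rose and 4 fell. *Wnt6* (chromosome 1, 74771892 to 74785322) was 2.89 to 5.36 CPM in NT + Sham (median 4.88) and 5.57 to 12.1 CPM in NT + Stroke (median 8.10), with a log2 difference of 0.96 (SE 0.19, adjusted *P* = 0.0014). *Wnt5a*, the prototype of the non-canonical ligands, was 4.58 to 9.61 CPM in NT + Sham (median 7.93) and 8.77 to 17.0 CPM in NT + Stroke (median 11.4). Those ranges overlapped at the edge, and the log2 difference of *Wnt5a* was 0.72 (SE 0.18, adjusted *P* = 0.00832). *Wnt7a*, which acts on brain endothelium and on synapses, rose by less (log2 difference 0.56, SE 0.11, adjusted *P* = 0.000721). *Wnt11*, another non-canonical ligand, was at 3 to 14 counts per library in NT + Sham and 13 to 23 in NT + Stroke. Its log2 difference of 0.97 (SE 0.35, adjusted *P* = 0.0483) rested on those few counts and lost its call in 10 of 12 fits that left out 1 library (without NT + Sham 1, 3, 4 or 5, or any NT + Stroke library), and over all 12 fits it was 0.80 to 1.19.

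The ligands that fell were those with the highest levels per length in the section. *Wnt7b* (chromosome 15, 85535437 to 85582473) was 77.6 to 88.2 CPM in NT + Sham (median 80.5) and 47.0 to 74.6 CPM in NT + Stroke (median 58.5), with no overlap and a log2 difference of -0.43 (SE 0.08, adjusted *P* = 0.000705). *Wnt4* was 23.3 to 35.5 CPM in NT + Sham (median 29.7) and 16.3 to 26.3 CPM in NT + Stroke (median 20.7), and its log2 difference was -0.49 (SE 0.11, adjusted *P* = 0.0029). The groups of *Wnt4* overlapped slightly. *Wnt9a* was 17.5 to 25.1 CPM in NT + Sham (median 20.8) and 14.0 to 18.4 CPM in NT + Stroke (median 16.7), with a log2 difference of -0.34 (SE 0.10, adjusted *P* = 0.0139). Its call was lost in 2 of 22 alternative fits. *Wnt10a* was 15.02 to 17.66 CPM in NT + Sham (median 16.1) and 10.99 to 15.62 CPM in NT + Stroke (median 12.3), with a log2 difference of -0.32 (SE 0.09, adjusted *P* = 0.0109). The canonical ligands *Wnt1* and *Wnt3* had log2 differences of 0.01 and 0.08 and did not pass, nor did *Wnt2*, *Wnt2b*, *Wnt5b*, *Wnt10b* and *Wnt16*, whose log2 differences lay between -0.09 and 0.31. Reads of *Wnt5b* and *Wnt7b* may be shared with genes on the opposite strand, *Fbxl14* (13083 counts in all) and *AU022754* (1074 counts), since the strand setting of the counting was not given in the sources used here.

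Of 12 receptor genes, 4 rose and 1 fell. *Fzd7* (chromosome 1, 59482424 to 59486955) was 4.83 to 7.84 CPM in NT + Sham (median 5.33) and 10.14 to 15.96 CPM in NT + Stroke (median 11.6). With the groups wholly apart, its log2 difference was 1.04 (SE 0.15, adjusted *P* = 3.78e-05). *Fzd5* was 1.38 to 2.57 CPM in NT + Sham (median 1.51) and 2.03 to 3.78 CPM in NT + Stroke (median 3.10), a log2 difference of 0.78 (SE 0.21, adjusted *P* = 0.00948). The co-receptor *Lrp5* rose too (log2 difference 0.56, SE 0.11, adjusted *P* = 0.00126), while *Lrp6*, its close relative, had a log2 difference of 0.10 (SE 0.06) that did not pass. *Fzd2* had a log2 difference of 0.32 (SE 0.11, adjusted *P* = 0.0473), which was lost in 8 of 12 fits without 1 library (without NT + Sham 1, 4, 5 or 6, or NT + Stroke 1, 2, 5 or 6), and over all 12 fits it was 0.25 to 0.39.

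*Fzd3*, a Frizzled known for axon guidance, was 67.6 to 75.9 CPM in NT + Sham (median 73.1) and 59.1 to 67.7 CPM in NT + Stroke (median 60.6), touching only at the edge. It fell by 0.20 on the log2 scale (SE 0.05, adjusted *P* = 0.00839). The other receptors, *Fzd1*, *Fzd4*, *Fzd6*, *Fzd8*, *Fzd9* and *Fzd10*, did not pass, with log2 differences from -0.27 to 0.25.

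In the R-spondin axis 1 of 8 genes passed. *Rspo2* (chromosome 15, 43020794 to 43170826), a secreted enhancer of Wnt signaling, was 9.54 to 15.3 CPM in NT + Sham (median 12.02) and 5.75 to 8.27 CPM in NT + Stroke (median 6.63), without overlap. Its log2 difference was -0.84 (SE 0.13, adjusted *P* = 8.5e-05), the largest fall of the 53 genes. Its relatives *Rspo1* and *Rspo3* had log2 differences of -0.05 and 0.05, and the ubiquitin ligases *Znrf3* and *Rnf43* of -0.07 and 0.15. The receptors *Lgr6*, *Lgr5* and *Lgr4* had log2 differences of 1.02, 0.93 and 0.25 with adjusted *P* of 0.056, 0.136 and 0.0501, so that none passed, and their spread within groups is described with the section plane.

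Of 9 intracellular genes, 4 rose and none fell by the same edgeR test, with 6 at an unadjusted *P* under 0.05. *Axin1*, the scaffold of the β-catenin destruction complex, was 25.3 to 30.5 CPM in NT + Sham (median 29.8) and 31.9 to 37.7 CPM in NT + Stroke (median 34.8), a small difference without overlap (log2 difference 0.29, SE 0.07, adjusted *P* = 0.00434). The TCF factors *Tcf7l1*, *Tcf7* and *Tcf7l2* had log2 differences of 0.61 (SE 0.14), 0.50 (SE 0.15) and 0.48 (SE 0.13), all past the threshold. *Tcf7* lost its call without NT + Sham library 1 or NT + Stroke library 1, with a log2 difference no lower than 0.41 and an adjusted *P* of up to 0.0552. *Ctnnb1* itself had a log2 difference of 0.00 (SE 0.11). *Axin2*, *Nkd1* and *Lef1*, which β-catenin is known to induce as feedback genes or partners, had log2 differences of 0.07 (SE 0.07), 0.14 (SE 0.09) and 0.34 (SE 0.15) that did not pass. *Nkd2*, a relative of *Nkd1*, had one of 0.58 (SE 0.23, adjusted *P* = 0.0677). Apart from *Sfrp2*, *Notum*, *Wnt11*, *Fzd2* and *Tcf7*, the genes called kept their call when any 1 library was left out.

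**Figure D2:**
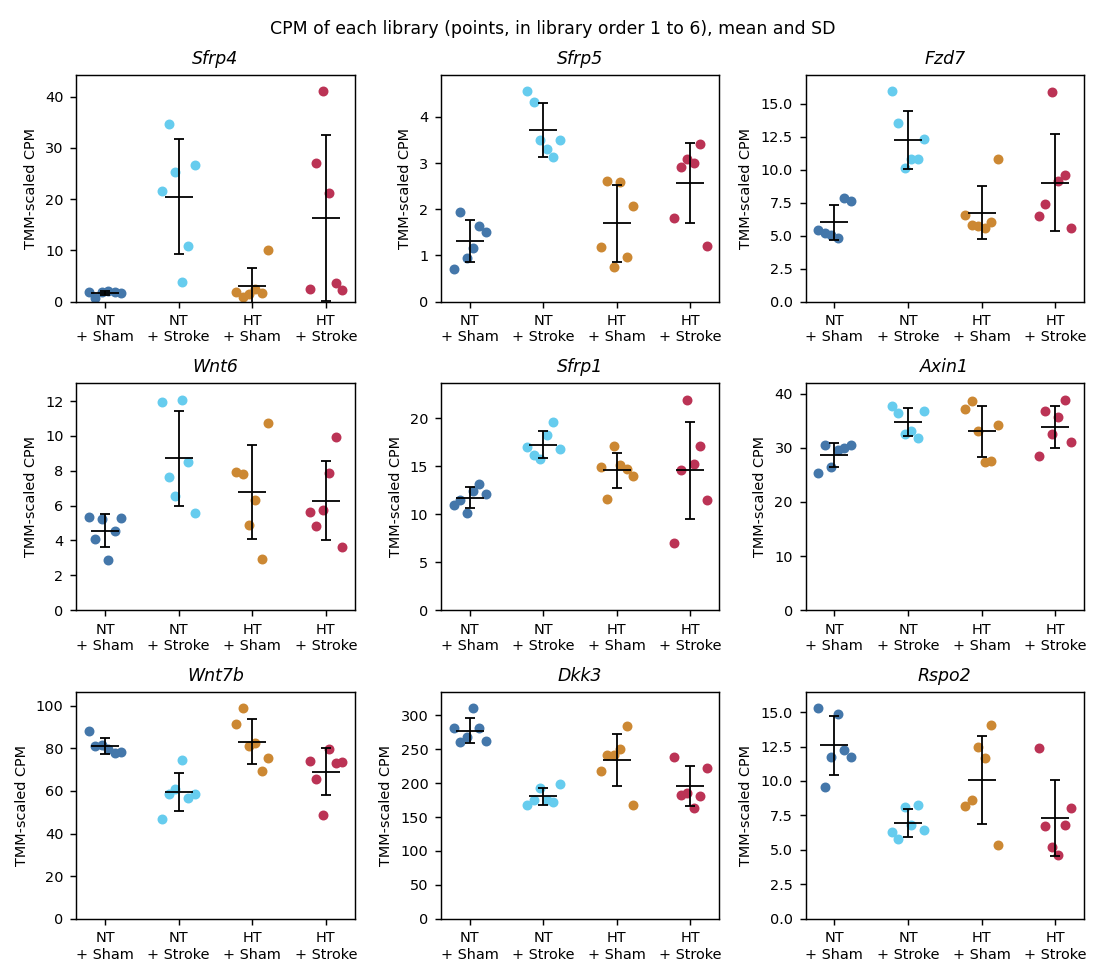
TMM-scaled CPM in each library (points, in the order 1 to 6), with the mean and SD, for the 9 genes whose NT + Stroke and NT + Sham libraries did not overlap. For *Sfrp4*, libraries 2, 3 and 4 of HT + Stroke reach 21.2 to 41.0 CPM while libraries 1, 5 and 6 are at 2.35 to 3.56 CPM, and HT + Sham library 6 is at 10.03 CPM.

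Other genes of the pathway, from a list of 54 that are not among the 60, were looked at in the same comparison. Of 52 tested, 14 rose and 4 fell (34.6%, beside 25.9% of all genes). The largest rises were those of *Cd44*, an adhesion receptor gene and known Wnt target (log2 difference 2.32, SE 0.18), and of the extracellular or membrane modulators *Shisa3* and *Draxin* (1.64, SE 0.39 and 1.63, SE 0.30). The largest falls were those of the planar polarity genes *Prickle2* and *Celsr2* (-0.33, SE 0.05 and -0.23, SE 0.06) and of *Porcn*, the enzyme that attaches the lipid to Wnt ligands (-0.22, SE 0.06). The non-canonical Wnt receptors *Ror1* and *Ror2* rose as well (1.21, SE 0.26 and 0.87, SE 0.22), and were singled out here after their values were seen. Extracellular and membrane modulators rose in 7 of 12 cases. Cytoplasmic transducers such as the Dishevelled and Gsk3 genes passed in 0 of 12 cases by edgeR, 3 of them at an unadjusted *P* under 0.05.

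Markers of several cell types moved in the same libraries. Summed over all 8 of 8 listed genes, the markers of meningeal and perivascular fibroblasts were 63.6 to 81.0 CPM in NT + Sham and 236 to 768 CPM in NT + Stroke. The 3 reactive astrocyte markers summed to 213 to 250 CPM in NT + Sham and 808 to 1392 CPM in NT + Stroke, and the 6 microglia and macrophage markers to 207 to 232 and 272 to 371 CPM. The 7 cortical excitatory neuron markers were lower, at 2842 to 3602 CPM in NT + Sham and 1950 to 2722 CPM in NT + Stroke. The 8 markers of pericytes and smooth muscle summed to 246 to 276 and 307 to 356 CPM, the 4 thalamic markers to 24 to 28.96 and 29.4 to 48.2 CPM, and the 4 T cell markers, of which 1 was above 0.5 CPM, to 2.01 to 3.37 and 3.86 to 5.01 CPM. The thalamic sum rose mostly through *Prkcd* (mean 10.2 CPM in NT + Sham and 24.9 CPM in NT + Stroke). *Slc17a6* was at 11.2 and 10.9 CPM, *Tnnt1* at 4.52 and 4.98 CPM and *Gbx2* at 0.118 and 0.374 CPM. The groups were apart for each of these 7 lists, and overlapped for the other 9 lists. None of these markers was at 0 counts throughout a group. Their part in the rises of the *Sfrp* genes and *Fzd7*, or in the falls of *Dkk3*, *Rspo2* and the ligands, was not tested.

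The region markers moved with the same comparison, and this was examined by adding the olfactory bulb and striatal scores to the fit. Whether the plane of section moved them was not tested. A score is the mean log2(CPM + 1) of the region's markers in a library. The mean olfactory bulb score, centred on 0 over all libraries, was -0.493 in NT + Sham and 0.499 in NT + Stroke, and the mean striatal score was -0.341 and 0.32. With both scores as covariates, 1 of the 53 genes remained past the threshold, *Dkk3* (log2 difference -0.38, SE 0.10, adjusted *P* = 0.0418), where 3.94% of all genes did. Of the 24 genes called without the scores, 22 kept their sign, 22 were closer to 0, 8 had an unadjusted *P* under 0.05, and the SE was larger for all 24, by 1.69 times at the median. *Sfrp4* changed little in size (3.40, SE 0.87, adjusted *P* = 0.0817), as did *Fzd5* (0.78, SE 0.40). *Tcf7l1* moved away from 0, from 0.61 to 0.85 (SE 0.24, adjusted *P* = 0.0501). The log2 difference of *Sfrp1* went from 0.58 to 0.45, that of *Sfrp5* from 1.51 to 1.12, that of *Fzd7* from 1.04 to 0.61 and that of *Rspo2* from -0.84 to -0.60, and none of these passed, with adjusted *P* from 0.116 to 0.211. The differences of *Wnt4*, *Wnt5a* and *Wnt11* shrank to -0.08, 0.14 and 0.29, and those of *Sfrp2* and *Tcf7* turned to -0.64 and -0.05 without passing. *Wnt7b* and *Wnt6* lost their call with the scores and in no other alternative fit. Over all alternative fits their log2 differences were -0.49 to -0.14 and 0.45 to 1.06.

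**Figure D3:**
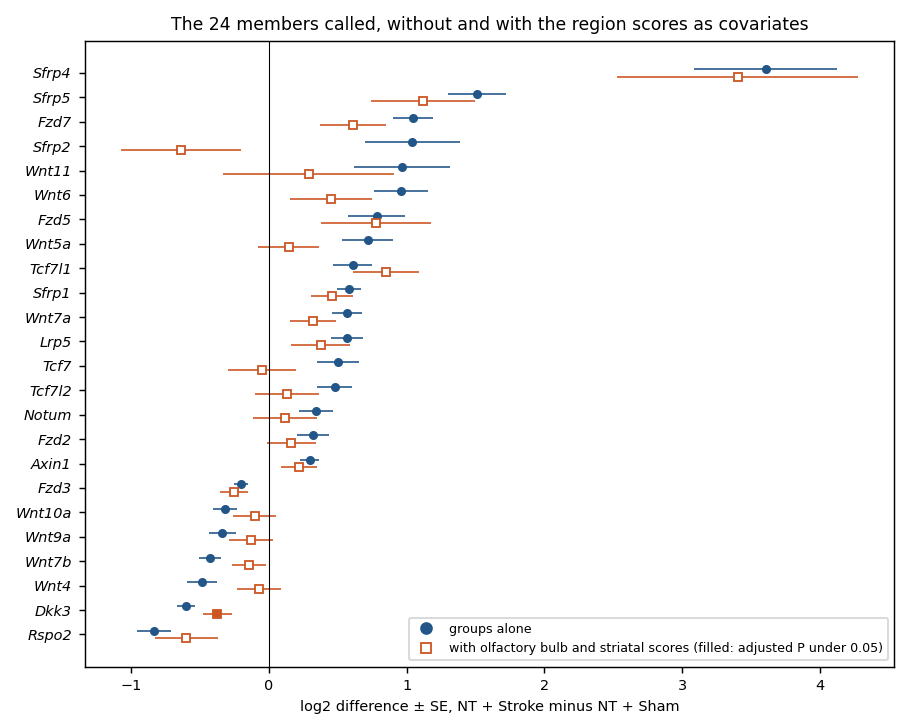
Log2 difference ± SE of NT + Stroke minus NT + Sham for the 24 genes called, from the groups alone (circles) and with the olfactory bulb and striatal scores in the fit (squares). *Sfrp4* stays near 3.4 to 3.6, most squares lie closer to 0 than their circles, and the square of *Dkk3* is the 1 that is filled.

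The effect of stroke in hypertensive mice came next. In HT + Stroke vs HT + Sham, 0 of the 53 genes passed by edgeR, 12 had an unadjusted *P* under 0.05, and DESeq2 called 1, *Rspo1*, where it called 5.32% of all genes. By edgeR, 0.645% of all 16741 genes passed (0.544% higher and 0.102% lower) and 17.0% had an unadjusted *P* under 0.05. The groups overlapped for all 53 genes and did not for 1.15% of all genes. The median log2 difference was -0.03 over the 53 genes and 0.00 over all genes. The region scores differed here too. The mean striatal score was -0.682 in HT + Sham and 0.703 in HT + Stroke, and the mean olfactory bulb score was 0.466 and -0.472. With both scores in the fit 0 of the 53 genes passed by edgeR, as did 0 of all genes, and 7 had an unadjusted *P* under 0.05. The share of all genes at that unadjusted level was not computed for this fit. The 3 genes with the smallest *P* all belonged to the R-spondin axis. *Rspo1* was 3.51 to 7.18 CPM in HT + Sham (median 5.94) and 6.62 to 11.3 CPM in HT + Stroke (median 9.43), with an overlap of the ranges at 6.62 to 7.18 CPM. Its log2 difference was 0.70 (SE 0.17, adjusted *P* = 0.0673), and the call changed under other settings, with an adjusted *P* of 0.00701 by DESeq2, 0.0218 with all 4 groups in 1 fit (6.39% of all genes called), 0.0381 with all genes of at least 1 count in the fit (0.550%) and 0.0368 without HT + Stroke library 5. With the region scores in the fit the log2 difference of *Rspo1* was 0.20 (SE 0.24, adjusted *P* = 0.856). *Rspo3* was 11.6 to 16.2 CPM in HT + Sham (median 13.3) and 7.09 to 13.2 CPM in HT + Stroke (median 9.56), a log2 difference of -0.42 (SE 0.14, adjusted *P* = 0.134). *Rnf43*, a ubiquitin ligase that R-spondins counteract, had a log2 difference of 0.47 (SE 0.17, adjusted *P* = 0.166).

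The genes that changed after stroke in NT mice can be followed in HT mice, which are separate libraries. Of the 24 genes, 21 had the same sign in HT mice (87.5%), against 86.4% of all 4308 genes called in NT mice and tested in both, so the share was near the background. The exceptions were *Wnt5a*, *Wnt6* and *Wnt11*, with log2 differences of -0.11, -0.09 and -0.27 in HT mice. *Sfrp4* was 0.995 to 10.03 CPM in HT + Sham (median 1.81) and 2.35 to 41.0 CPM in HT + Stroke (median 12.4). The highest sham value was that of library 6, and the 3 lowest stroke values were those of libraries 1, 5 and 6. The log2 difference of *Sfrp4* was 2.39 (SE 0.90, adjusted *P* = 0.215). *Dkk3* was 168 to 284 CPM in HT + Sham and 163 to 239 CPM in HT + Stroke, with its lowest sham value again in library 6 and its highest stroke value in library 1 (log2 difference -0.24, SE 0.11). For *Fzd7*, *Sfrp5* and *Rspo2* the log2 differences were 0.44 (SE 0.24), 0.64 (SE 0.33) and -0.45 (SE 0.24).

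Without HT + Stroke libraries 1 and 6, whose *C3* counts were low, 0 of the 53 genes passed by edgeR. Of all 17104 genes, 1172 (6.85%) passed. An unadjusted *P* under 0.05 was reached by 14 of the 53, a level at which the share of all genes was not computed. With HT + Sham library 6 left out too, 4 genes passed, beside 8.47% of all genes. They were *Sfrp4* (log2 difference 3.80, SE 0.63, adjusted *P* = 0.00706), *Dkk3* (-0.45, SE 0.09, adjusted *P* = 0.00798), *Rspo2* (-0.89, SE 0.19, adjusted *P* = 0.00822) and *Fzd7* (0.85, SE 0.19, adjusted *P* = 0.0114). All 4 were among the genes called in NT mice, with the same sign. These 3 libraries were chosen after the data were seen, by their *C3* counts. As *C3* itself was higher after stroke, this choice favors larger stroke differences in genes that vary with it. The shared signs are therefore no separate support for the result in NT mice. The part of the injury signs in these differences was not tested. The summed fibroblast markers were 97.4 and 95.4 CPM in HT + Stroke libraries 1 and 6 against 197 to 893 CPM in the other libraries of the group, and 235 CPM in HT + Sham library 6.

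Hypertension was compared with normotension in sham and in stroke mice. In HT + Sham vs NT + Sham, 0 of the 53 genes passed by edgeR and 0 by DESeq2. Of all 16581 genes, 0% passed by edgeR and 1 gene by DESeq2, with 9 of the 53 at an unadjusted *P* under 0.05 (8.03% of all genes were). *Sfrp1* was 10.1 to 13.2 CPM in NT + Sham (median 11.8) and 11.6 to 17.1 CPM in HT + Sham (median 14.8), a log2 difference of 0.32 (SE 0.10, adjusted *P* = 0.426). *Wnt7a* was 10.98 to 14.84 CPM in NT + Sham (median 12.5) and 12.9 to 17.5 CPM in HT + Sham (median 15.2), with a log2 difference of 0.31 (SE 0.10, adjusted *P* = 0.432). *Lgr5*, a receptor for R-spondins, was 6.18 to 13.2 CPM in NT + Sham (median 7.73) and 9.14 to 28.6 CPM in HT + Sham (median 17.2), with a log2 difference of 0.95 (SE 0.29, adjusted *P* = 0.435). The log2 difference of *Lgr5* was 0.73 without HT + Sham library 6, which held its highest value. The sham groups also differed in their olfactory bulb markers, at 81.8 to 175 CPM and 129 to 564 CPM. With the region scores in the fit 0 of the 53 had an unadjusted *P* under 0.05. What share of all genes did so in that fit was not computed.

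In HT + Stroke vs NT + Stroke, 0 of the 53 genes passed by edgeR and 0 by DESeq2, as did 0% of all 17008 genes, and 7 of the 53 had an unadjusted *P* under 0.05 (7.23% of all genes did). The median log2 difference was -0.11 over the 53 genes and -0.01 over all genes. *Lgr4*, the most broadly expressed of the Lgr receptors, was 18.8 to 26.2 CPM in NT + Stroke (median 22.8) and 15.2 to 21.3 CPM in HT + Stroke (median 18.3), a log2 difference of -0.31 (SE 0.10, adjusted *P* = 0.654). *Rspo1* had a log2 difference of 0.42 (SE 0.16) and *Rspo3* of -0.36 (SE 0.15), both with an adjusted *P* of 0.654. Without HT + Stroke libraries 1 and 6, 0 of the 53 genes passed by edgeR, as did 0 of all 17421 genes. An unadjusted *P* under 0.05 was reached by 5 of the 53, and the share of all genes at that level was not computed.

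Whether stroke acted differently in HT and NT mice was tested by the interaction over all 24 libraries. By edgeR and by DESeq2, 0 of the 53 genes passed. Of all 17608 genes, 0% passed by edgeR and 22 genes (0.125%) by DESeq2. However, 16 of the 53 had an unadjusted *P* under 0.05, where 10.4% of all genes did. The median interaction was -0.26 over the 53 genes and 0.00 over all genes on the log2 scale. *Lgr4* had an interaction of -0.52 (SE 0.15, adjusted *P* = 0.319), *Rspo1* of 0.74 (SE 0.25, adjusted *P* = 0.322) and *Wnt5a* of -0.83 (SE 0.28, adjusted *P* = 0.322). Without HT + Sham library 6 these interactions were -0.46, 0.63 and -0.71. In HT mice *Wnt5a* was 8.14 to 13.2 CPM after sham surgery (median 9.12) and 6.04 to 12.7 CPM after stroke (median 8.30), so the groups overlapped in part, with stroke libraries 1, 2 and 6 below every sham library. The mean olfactory bulb score had the same pattern over the groups, at -0.493 in NT + Sham, 0.499 in NT + Stroke, 0.466 in HT + Sham and -0.472 in HT + Stroke. With the region scores in the fit, the interaction had an unadjusted *P* under 0.05 for 0 of the 53 genes. Without HT + Sham library 6 and HT + Stroke libraries 1 and 6 the number was 4. For all genes the share at that level was not computed in these fits. The fall from 16 therefore cannot be read as particular to these genes.

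**Figure D4:**
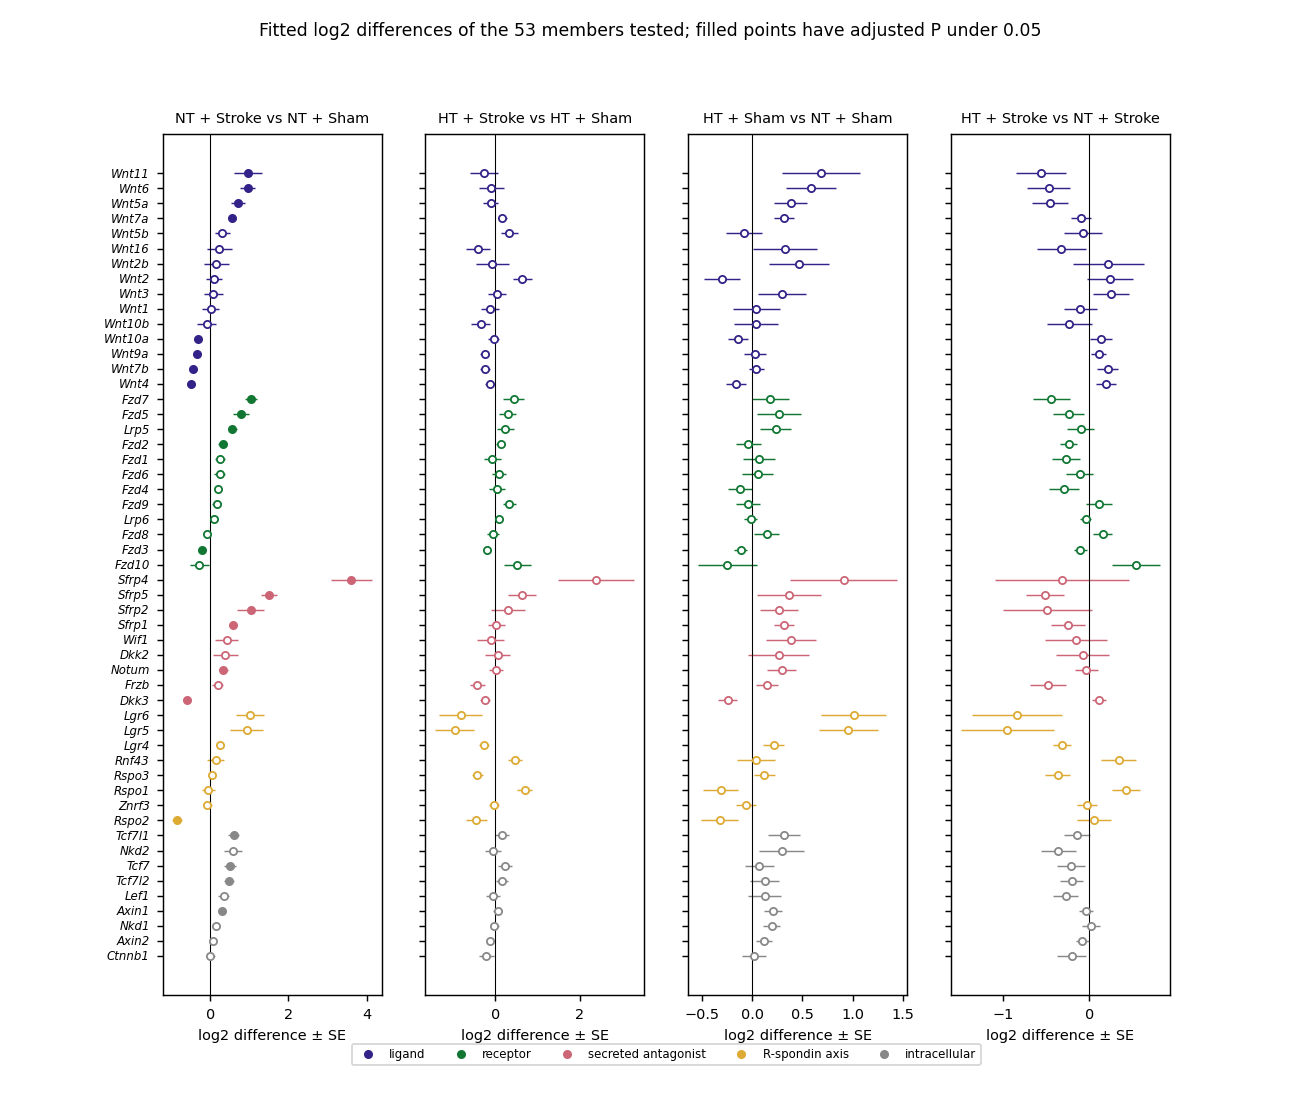
Fitted log2 difference ± SE of the 53 genes tested in the 4 comparisons of groups, colored by role, with filled points for an adjusted *P* under 0.05. The horizontal scale differs between panels, 24 points are filled in NT + Stroke vs NT + Sham and none in the other panels.

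The olfactory bulb score was then taken as a measure of its own. These genes could differ with the amount of olfactory bulb in the section within a group. With group in the fit, 16 of the 53 genes varied with the olfactory bulb score (14 higher and 2 lower), which is 30.2% of them, beside 7.16% of all 17600 genes (4.36% higher and 2.80% lower). Other tools, scalings and filters called 12 to 18 of the genes, beside 9.06% of all genes with DESeq2, 7.06% with scaling by library size only, 7.23% with upper-quartile scaling, 3.35% among all genes with at least 1 count, 8.06% with at least 10 counts in every library and 7.25% and 7.16% with limma on FPKM. In the R-spondin axis 4 of 8 genes passed and in the ligands 6 of 15, and of 9 intracellular genes 0 passed by edgeR, with 2 at an unadjusted *P* under 0.05. A slope of 1 means that the log2 level of a gene rose by 1 for each unit of the score.

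The receptors *Lgr6* and *Lgr5* followed the score most closely. *Lgr6* (chromosome 1, 134983301 to 135105276) was 6.54 to 16.6 CPM in NT + Sham (median 11.4), 11.6 to 37.0 in NT + Stroke (median 23.2), 12.5 to 43.8 in HT + Sham (median 22.6) and 4.25 to 25.3 in HT + Stroke (median 11.1). All 4 groups overlapped, and in each group the library with the highest olfactory bulb score had the highest level. Its slope was 1.02 (SE 0.05, adjusted *P* = 4.46e-14), which ranked 4 among all genes by *P*. *Lgr5* (chromosome 10, 115450311 to 115587780) was 5.81 to 28.0 CPM in NT + Stroke (median 14.9) and 3.37 to 18.4 CPM in HT + Stroke (median 7.45). It had a slope of 1.01 (SE 0.07, adjusted *P* = 2.72e-11) and ranked 14. Either gene kept its call when any 1 library was left out, in sham libraries only (slopes of 0.94 and 0.88) and with the striatal score added (0.97 for *Lgr6*). *Lgr4* had a smaller slope of 0.19 (SE 0.04, adjusted *P* = 0.0023).

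*Wif1*, a secreted Wnt inhibitor, had a slope of 0.55 (SE 0.13, adjusted *P* = 0.00491), and was between 0.731 and 2.67 CPM over all libraries. *Wnt6* and *Wnt5a* had slopes of 0.44 (SE 0.09, adjusted *P* = 0.00304) and 0.39 (SE 0.06, adjusted *P* = 9.06e-05). Both ligands also rose in NT + Stroke vs NT + Sham. *Frzb*, at 17.0 to 45.8 CPM over all libraries, had a slope of 0.38 (SE 0.04, adjusted *P* = 9.61e-08). *Wnt2*, a canonical ligand, ran the other way. It was 2.38 to 6.28 CPM in NT + Stroke and 3.16 to 8.39 CPM in HT + Stroke, with its lowest values of NT + Stroke, HT + Sham and HT + Stroke in libraries 4, 6 and 5, where the olfactory bulb markers were at 425, 564 and 350 CPM. *Wnt2* had a slope of -0.46 (SE 0.08, adjusted *P* = 0.000262), and *Dkk3* had a slope of -0.14 (SE 0.04, adjusted *P* = 0.0279).

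The smallest slopes past the threshold, after *Wnt2* and *Dkk3*, were those of *Wnt7a* (0.17, SE 0.04, adjusted *P* = 0.0177), *Lgr4* and *Sfrp1* (0.22, SE 0.07, adjusted *P* = 0.0481). *Rspo3*, *Lrp5*, *Wnt5b*, *Fzd7* and *Wnt10b* also passed, with slopes of 0.23, 0.25, 0.30, 0.31 and 0.36. With HT + Stroke library 1 left out 10 genes passed (5.48% of all genes), and 10 without libraries 1 and 6 of that group (4.76%). Without HT + Sham library 6, 12 passed (4.74%). The count thus rested partly on these libraries. Of the genes named, *Dkk3*, *Fzd7*, *Lrp5*, *Sfrp1*, *Wnt10b*, *Wnt5b* and *Wnt7a* lost their call without HT + Stroke library 1. *Sfrp1* kept its call only without NT + Stroke library 1, HT + Sham library 5 or 6, or HT + Stroke library 2, 3 or 4. *Wnt10b* lost it also without NT + Sham 3 or 5, NT + Stroke 2, 3 or 5, HT + Sham 2 or 6, or HT + Stroke 2 or 5. *Dkk3* and *Lrp5* lost it also without HT + Sham library 5 or 6, *Dkk3* without HT + Stroke library 4, *Lrp5* without NT + Stroke library 3, *Fzd7* without NT + Stroke library 1 or HT + Sham library 6, and *Wnt5b* without HT + Stroke library 5. Over all alternatives the slopes were 0.11 to 0.29 for *Sfrp1*, 0.15 to 0.44 for *Wnt10b*, 0.18 to 0.42 for *Lrp5*, 0.20 to 0.46 for *Fzd7*, 0.17 to 0.33 for *Wnt5b* and -0.21 to -0.11 for *Dkk3*. In sham libraries only, 4 genes passed, *Lgr6*, *Lgr5*, *Frzb* and *Sfrp4*, beside 1.24% of all genes. With the striatal score added, 4 passed, *Lgr6*, *Lgr5*, *Frzb* and *Wnt5a*, beside 1.29% of all genes. Of the pathway list, 13 of 53 genes (24.5%) varied with the score, beside 7.16% of all genes. Among them *Shisa3* had the largest slope (1.12, adjusted *P* = 1.63e-07).

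**Figure D5:**
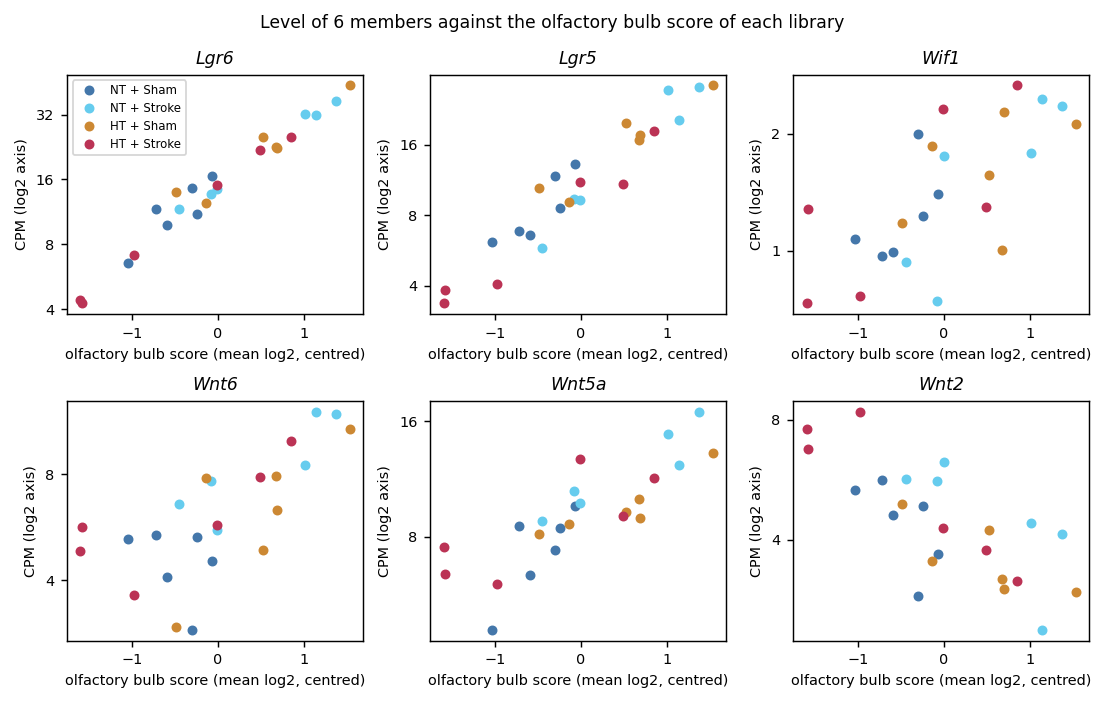
CPM (log2 axis) of 6 genes against the olfactory bulb score of each library (mean log2(CPM + 1) of 8 markers, centred on 0), colored by group. *Lgr6* and *Lgr5* rise with the score in all 4 groups, with some scatter between libraries of near-equal score, *Wif1*, *Wnt6* and *Wnt5a* rise with more scatter, and *Wnt2* falls.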

How the data were processed

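Poly(A) RNA from a coronal section of brain was sequenced in 24 libraries, 6 in each of 4 groups. The authors counted reads per gene of an Ensembl mouse annotation; the submitters' processing notes name featureCounts 1.5.0-p3 and DESeq2 1.20.0. The aligner, strand setting and genome build are not given in the sources used here. The deposited tables hold raw read counts and FPKM per library. Their fold change and p-value columns hold the authors' own comparisons and were not used, nor were 48 columns of normalized counts and 8 of group means. Positions are those in the tables, and 58 of the 60 genes have the same position in GENCODE M21 on GRCm38.

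GEO lists 1 sample per group, and libraries were taken from the numbered columns. The 4 tables were joined by gene ID, and libraries shared by 2 tables held equal counts. Libraries held 15922919 to 24865998 counts, and no pair of libraries of the same group agreed within sampling noise. Pairs from different groups were not compared in this way. Genes were filtered with filterByExpr (at least 10 counts in enough libraries, 15 in all), scaled by TMM, and tested with edgeR 4.0.16 (quasi-likelihood, R 4.3.3) within the groups compared, or over all 24 libraries for the interaction and the olfactory bulb slope. *P*-values were adjusted over every tested gene (Benjamini-Hochberg) and called under 0.05. The error given is the SE of the log2 difference. CPM are TMM-scaled. Alternatives were DESeq2 1.42.0, library-size or upper-quartile scaling, 2 other count filters, limma 3.58.1 on log2(FPKM + 1) and log2(FPKM + 0.1), region scores as covariates, all 4 groups in 1 fit, a block for the library number, and leaving out libraries. The fits were tested on simulated data. Figures were drawn with matplotlib 3.10.9.

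The genes described, the pathway list and the marker lists were chosen with earlier results of these data known. By a fixed rule, all genes called in the stroke comparisons were named, with the 8 largest and 8 smallest log2 differences in full; all called for the slope, with the 5 largest and 5 smallest in full; and the 3 genes with the smallest *P* where none was called.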

Additional observations from a re-analysis of the deposited data

Results flagged for a closer look

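Of 35 genes named above, each checked in the 4 groups (140 sets of 6 libraries), 13 sets held a library whose gap to its nearest neighbor, as a share of the range of the group, exceeded Dixon's 95% critical value. Chance flags about 1 in 20 such sets, and the 13 fell in 9 libraries. In HT + Sham library 6, the CPM was highest for *Sfrp4* (10.03, next 2.396), *Fzd7* (10.82, next 6.557) and *Wnt5a* (13.24, next 10.04). The same library had 210 counts of *C3* and the highest olfactory bulb markers (564 CPM), whose part in these values was not tested.

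In NT + Stroke library 1, *Sfrp2* was at 6.331 CPM (next 2.626) and *Notum* at 5.807 CPM (next 5.028). *Notum* stood apart in HT + Stroke library 4 too, at 6.841 CPM (next 5.008), as did *Tcf7l1* at 11.2 CPM (next 7.955), and *Sfrp2* in HT + Stroke library 3, at 4.732 CPM (next 2.024). *Wnt10b* was at 4.36 CPM in NT + Stroke library 5 (next 2.511), *Wnt5b* at 3.013 CPM in HT + Sham library 1 (next 2.519) and *Wnt7b* at 88.2 CPM in NT + Sham library 1 (next 81.45). The low values were *Sfrp4* in NT + Sham library 2, at 0.7722 CPM (next 1.766), and *Wnt9a* in HT + Stroke library 1, at 14.27 CPM (next 17.43).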

How the results depend on the processing

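The number of genes called in NT + Stroke vs NT + Sham was 20 to 27 under other tools, scalings, filters and fits and 19 to 24 when 1 library was left out (19 without NT + Stroke library 1), but 1 with the region scores in the fit, where *Sfrp2* and *Tcf7* changed sign (-0.640 and -0.051). For HT + Stroke vs HT + Sham the count of 0 became 1 with DESeq2 or with all genes of at least 1 count, 2 with all 4 groups in 1 fit (*Rspo1* and *Rspo3*), and 4 without HT + Sham library 6 and HT + Stroke libraries 1 and 6, and was 0 to 1 when 1 library was left out. Under every alternative run, 0 genes were called for either comparison of HT with NT and for the interaction, also with 1 library left out (0 to 0). For the olfactory bulb slope the count of 16 became 4 with the striatal score added, 4 in sham libraries only and 10 without HT + Stroke libraries 1 and 6, and ran from 10 to 17 with 1 library left out. Pairing of samples by library number was not evident but not excluded (same-number correlations of -0.38 to 0.261, and in no pair of groups were all over 0.1). Of 6 libraries, 1 to 3 best matched their own number in each pair of groups. With a block for the replicate number 25 genes were called in NT + Stroke vs NT + Sham, 23 of them shared, and 0 in the other comparisons of groups. Depth limited the 7 genes not tested. There were 6 libraries a group, and the region scores differed between groups. Region and group can thus be told apart only as far as the scores in the fit allow.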
